A study of Mus musculus with 27 samples.

Results

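Bone marrow cells kept in Flt3 ligand (Flt3-L) for 24 h were compared with cells kept in it for 12 h, using the 3 arrays of each time whose titles name Flt3-L and no cyclosporin A. These are 6 of the 27 arrays of the study, and 19935 genes were compared between them, with the spread estimated over all 27. The study cultured marrow from femurs and tibiae of C57BL/6 mice aged 8 to 12 weeks in Flt3-L medium and measured total RNA with Affymetrix arrays at several times. The comparison asks what changed between these 2 times within the culture. Both groups had Flt3-L at about 200 ng/ml, supplied by transfected B16 tumour cells, in medium with heat-inactivated fetal calf serum. By their labels, which name no batch, they differed in time only. Cultures with cyclosporin A (CsA), an inhibitor of the phosphatase calcineurin, at 2 µg/ml from 30 min before the ligand, served as a second measurement of the same step. The marrow was not sorted. Each group is 3 biological replicates, with no statement of whether they were separate mice or cultures. The p-values therefore measure the spread between arrays of the same group, pooled over all 9 groups of the study.

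Flt3-L binds the receptor tyrosine kinase Flt3 on marrow progenitors, and in long cultures it brings up conventional and plasmacytoid dendritic cells. Whole marrow also holds erythroid precursors, which need erythropoietin to survive and mature, and monocytes, which can become macrophages in a dish. Macrophages take up and digest dying cells and nuclei, export the cholesterol they gain from them, and carry receptors and bridging proteins for that work.

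The 6 arrays formed 2 distinct groups. Array medians lay between 119.8 and 123.9 on the deposited intensity scale, the correlation across probe sets was 0.99727 to 0.99844 within a group and 0.99467 to 0.99614 between the groups, and 6 of 6 arrays lay nearest to one of their own group. The leukocyte marker Ptprc and the myeloid regulator Spi1 stood at the 98.5 and 98.9 percentiles of all genes. Neutrophil markers (Ly6g, Mpo, S100a8) and macrophage markers (Csf1r, Adgre1, Cd68) lay at the 94.8 percentile or above, and the B cell receptor gene Cd79a at 97.2. The dendritic cell markers Siglech, Flt3 and Itgax lay at 89.2, 74.8 and 64.9, and the erythroid factor gene Klf1 at 64. The NK cell marker Ncr1, at 31.0 to 39.2, and the stromal chemokine Cxcl12, at 64.3 to 72.4, lay at the 14.8 and 30.8 percentiles. The T cell marker Cd3e and the stromal collagen gene Col1a1 (249.2 to 287.0) lay higher, at 64.1 and 61.7.

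Between 12 h and 24 h, 15 of 20 monocyte and macrophage genes and 8 of 13 genes of cholesterol efflux and lipid storage rose, and 9 of 10 red cell membrane genes and 21 of 21 genes of the G2 and M phases fell. In all, 1114 genes were called higher and 1100 lower at an adjusted p below 0.05 (limma with Benjamini-Hochberg adjustment over all genes, used for every adjusted p here), which is 5.59% and 5.52% of the genes tested. Most changes were small. The median called rise was 0.30 and the median called fall -0.35 on the log2 scale, beside a median SE of 0.077 and a median over all genes of -0.006. At least 2-fold changes were found for 36 rises (0.181% of genes) and 53 falls (0.266%), and 6 rises and 4 falls passed 4-fold. Arrays of the 2 times did not overlap for 1090 of the called rises and 1087 of the called falls. Over all genes tested, called or not, 13.3% had every 24 h array above every 12 h array and 13.6% had every one below. Without the second 24 h array the called rises numbered 715.

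**Figure D1:**
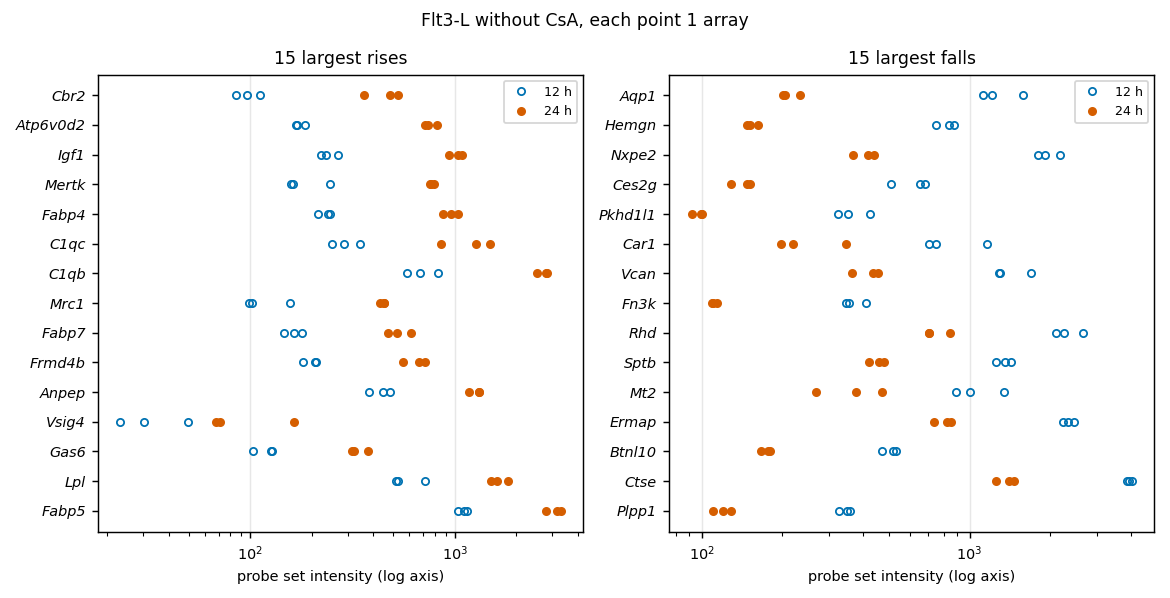
Probe set intensity (log axis) on each of the 6 arrays for the 15 largest rises and the 15 largest falls, open circles 12 h and filled circles 24 h, 1 point per array. The 2 times stand apart for every gene shown, narrowly for Vsig4, whose highest 12 h array read 49.5 and whose lowest 24 h array read 68.3.

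The largest rise was that of Cbr2, a carbonyl reductase, from 84.9, 111.6 and 95.9 to 482.8, 529.6 and 360.7 (2.22 ± 0.15, adjusted p 5.62e-11). Igf1, the growth factor that macrophages can secrete, rose 4.22-fold, from 269.4, 222.8 and 235.0 to 1035.8, 1087.1 and 940.6 (2.08 ± 0.15). In both genes every 24 h array lay above every 12 h array. Some genes of the uptake of dying cells were also among the largest rises. Mertk, a receptor kinase through which macrophages bind and engulf dying cells, read 244.2, 162.4 and 157.4 at 12 h and 766.0, 792.5 and 755.0 at 24 h. Every 24 h array was above every 12 h array, and the change was 4.19-fold (log2 change 2.07 ± 0.15, SE from the fit, n = 3 arrays per group, adjusted p 2.96e-10). Gas6, the bridging protein that links phosphatidylserine on dying cells to Mertk and its relatives, read 126.2, 127.0 and 103.5, then 313.7, 375.4 and 322.7. It rose 2.84-fold (1.51 ± 0.10, adjusted p 6.94e-11). Axl, a second receptor of the Mertk family, rose by less, from 495.7, 345.1 and 338.3 to 716.6, 621.8 and 618.3 (0.75 ± 0.13, adjusted p 0.00024), again without overlap.

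The 3 chains of C1q, the complement starter protein that also tags dying cells, rose together. C1qb, on the array at 829.6, 672.4 and 583.4 at 12 h, reached 2821.1, 2804.4 and 2526.9 (1.98 ± 0.12, adjusted p 1.45e-11). C1qc went from 287.6, 345.1 and 250.0 to 1483.3, 1264.9 and 856.4 (2.01 ± 0.17), and C1qa from 177.5, 169.8 and 142.8 to 444.4, 461.3 and 309.6 (1.29 ± 0.15). C1qb and C1qc are neighbouring protein-coding genes on mouse chromosome 4 in the RefSeq annotation of GRCm38.p6. None of the 3 had overlapping times.

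Mrc1, the mannose receptor, rose 3.81-fold, from 156.6, 101.9 and 98.8 to 449.1, 431.2 and 451.8 (1.93 ± 0.16, adjusted p 3.76e-09). The scavenger receptor Stab1 rose from 508.0, 512.0 and 464.1 to 934.8, 993.0 and 971.3 (0.97 ± 0.08), and the lectin Cd209a by 0.77 ± 0.08. Of 18 scavenger and phagocytic receptor genes, 6 rose, 1 fell and 11 were not called (median 0.14), beside 5.59% and 5.52% of all genes. Those not called include Tyro3, a relative of Mertk and Axl (0.04), Timd4 (-0.03), Cd36 (0.03) and Marco (-0.05). The one that fell was Clec4n (dectin-2, a receptor for fungal mannans), from 595.1, 723.3 and 721.3 to 446.4, 525.8 and 438.8 (-0.53 ± 0.13, adjusted p 0.00788). Cd5l, a secreted macrophage protein, ran from 84.2 to 275.7 at 12 h and from 240.8 to 520.0 at 24 h, with overlapping arrays, and was not called (1.19 ± 0.41, adjusted p 0.065). In 6 of 15 alternative settings it was called. Vsig4, a complement receptor of tissue macrophages, was read at low signal, 49.5, 30.2 and 23.2, then 164.0, 71.5 and 68.3 (1.51 ± 0.38, adjusted p 0.00911). Its call was lost without the third 12 h array and without the first 24 h array, where the adjusted p reached 0.0849.

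Across the monocyte and macrophage list 15 of 20 tested genes rose and 0 fell, against 5.59% of all genes called higher, with a median of 0.63. The count was 15 in each alternative setting tried. Trem2, a lipid-sensing receptor, rose from 699.8, 586.9 and 576.9 to 1538.1, 1440.9 and 1485.8 (1.27 ± 0.07, adjusted p 1.34e-12). The macrophage transcription factor gene Maf rose 2.09-fold (1.07 ± 0.08). The common identity markers moved by less: Cd68 by 0.53, Adgre1 (F4/80) by 0.45 and Csf1r, the receptor for macrophage colony-stimulating factor, by 0.40 ± 0.06. Fewer cells of a type and less RNA per cell cannot be told apart in bulk RNA, and the same holds for more cells and more RNA. Cd163, Fcgr4, Cx3cr1, Cd14 and Itgam were the members not called, and their changes ran from -0.16 to 0.22.

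Among genes of lipid handling, 8 of 13 cholesterol efflux and lipid storage genes rose and 0 fell (median 0.53). Fabp4, a fatty acid binding protein of macrophages and fat cells, read 239.0, 213.2 and 246.2 at 12 h and 1031.2, 962.8 and 879.9 at 24 h, a 4.11-fold rise (2.04 ± 0.13, adjusted p 2.68e-11). Its relative Fabp5 went from 1143.6, 1103.8 and 1033.6 to 2804.6, 3314.7 and 3152.1 (1.50 ± 0.09), and Fabp7 from 146.0, 164.1 and 179.9 to 608.4, 469.0 and 523.9 (1.71 ± 0.16). For all 3 the times stood apart. Lipoprotein lipase, Lpl, which frees fatty acids from lipoproteins, rose 2.83-fold from 710.6, 515.9 and 529.7 to 1822.1, 1500.2 and 1604.7 (1.50 ± 0.12). The cholesterol carrier Apoe rose 1.93-fold from an already high signal (2789.5 to 3226.1 at 12 h, 5600.3 to 5836.1 at 24 h), and the cholesterol exporter Abca1 rose 1.71-fold (0.77 ± 0.07). The genes that make cholesterol and fatty acids did not follow. Of 20 tested, 0 rose and 3 fell (5.52% of all genes were called lower), with a median of -0.11. The falls were the squalene synthase gene Fdft1 (-0.39 ± 0.06), Idi1 (-0.23 ± 0.06) and Nsdhl (-0.21 ± 0.06), and 1 of them was called without the second 12 h array or without the first 24 h array.

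Of 18 lysosome genes 12 rose and 0 fell, with a median of 0.28. Atp6v0d2, a subunit of the proton pump that acidifies lysosomes, led with a 4.37-fold rise from 166.5, 184.8 and 169.1 to 716.5, 741.1 and 819.5 (2.13 ± 0.11, adjusted p 2.51e-12). Another pump subunit, Atp6v1a, rose by 0.28. The proteases Ctss, which trims the invariant chain for antigen presentation, Ctsl and Ctsb rose by 0.63 ± 0.05, 0.53 ± 0.08 and 0.45 ± 0.05. Their single arrays did not overlap, and Ctss read 2402.3, 2324.1 and 2266.0 at 12 h and 3531.1, 3653.7 and 3628.3 at 24 h. The acid alpha-glucosidase gene Gaa, for glycogen breakdown, rose by 0.45 ± 0.07.

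Lysosome genes are known to share a promoter element, CACGTG, read by the factor TFEB. Promoter windows from RefSeq on GRCm38.p6, 300 bases each from 250 before to 50 after a gene's listed start, were searched for it. It is its own reverse complement, so both strands are covered by 1 search. It was present in 5 of 9 windows of 9 of the 12 risen lysosome genes (55.6%), in 0 of 14 windows of the risen monocyte and macrophage genes, and in 7.2% of 32851 windows of all genes. The largest risen lysosome genes with a single start and a match are printed 5′ to 3′ to show where it lies, with the match in capitals. They are Ctsl at chr13:64370471-64370770 on the minus strand and Gaa at chr11:119267713-119268012 on the plus strand.
Ctsl: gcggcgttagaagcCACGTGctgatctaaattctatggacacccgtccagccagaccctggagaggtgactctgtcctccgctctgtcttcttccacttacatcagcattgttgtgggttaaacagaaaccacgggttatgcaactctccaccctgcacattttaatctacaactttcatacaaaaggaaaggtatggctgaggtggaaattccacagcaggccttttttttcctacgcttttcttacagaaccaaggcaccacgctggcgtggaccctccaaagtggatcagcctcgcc
Gaa: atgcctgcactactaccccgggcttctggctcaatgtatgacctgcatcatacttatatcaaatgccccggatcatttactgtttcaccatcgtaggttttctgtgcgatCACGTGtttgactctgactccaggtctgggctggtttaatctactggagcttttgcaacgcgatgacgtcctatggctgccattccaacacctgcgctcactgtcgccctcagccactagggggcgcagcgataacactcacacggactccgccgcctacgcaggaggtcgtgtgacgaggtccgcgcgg
A match describes the letters in the window. It is no measure of binding, and no factor was measured as protein. Windows of the 6 lysosome genes not called were not counted, so the share does not bear on the rise. The RNA of Tfeb changed by 0.13 and was not called (limma, adjusted p 0.169, named after its value was seen).

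Of the 15 largest falls, 4 were members of the erythroid lists, namely Aqp1, Car1, Sptb and Ermap. Aqp1, the water channel of the red cell membrane, read 1582.8, 1120.8 and 1217.5 at 12 h and 201.0, 205.2 and 233.0 at 24 h. It fell 6.08-fold, the largest change in either direction (-2.60 ± 0.12, adjusted p 2.17e-13). Hemgn (haemogen), a nuclear protein of erythroid precursors, went from 876.5, 747.7 and 836.1 to 152.1, 147.4 and 161.7 (-2.41 ± 0.08), and the carbonic anhydrase gene Car1 from 1164.3, 704.9 and 750.1 to 197.2, 218.7 and 346.2 (-1.79 ± 0.23). Each dropped without any overlap of arrays. Nxpe2, Ces2g and Pkhd1l1 fell too, with log2 changes of -2.26, -2.10 and -1.91.

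Membrane and skeleton genes fell in 9 of 10 cases, with 0 higher and a median of -1.26. Sptb, for the beta chain of spectrin, read 1432.4, 1255.2 and 1353.1, then 480.8, 420.7 and 460.0 (-1.57 ± 0.06, adjusted p 2.06e-14), and its anchor Ank1 fell 2.40-fold (-1.26 ± 0.08). The blood group genes Ermap and Rhd fell by 1.54 and 1.63 on the log2 scale. Rhd, which is not an entry of the list, went from 2656.5, 2100.1 and 2260.8 to 708.8, 705.6 and 848.6, a 3.10-fold fall. The haemoglobin genes among its entries were not tested.

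Regulators of the lineage fell as well, 9 of 12 with 0 higher (median -0.47). Klf1, the transcription factor that switches on beta globin and many red cell genes, read 481.1, 468.5 and 473.3 at 12 h and 199.4, 183.9 and 177.8 at 24 h (-1.34 ± 0.10, adjusted p 5.53e-10). Gata1, the master factor of the lineage, went from 413.4, 437.0 and 384.1 to 286.0, 284.4 and 263.3, a smaller 1.48-fold fall (-0.57 ± 0.10). Rhag, an ammonia channel of the Rh complex, fell 2.73-fold (-1.45 ± 0.06), and the erythropoietin receptor gene Epor fell 2.00-fold, from 472.9, 406.0 and 472.1 to 232.9, 211.7 and 231.3. The times of all 4 genes stood apart.

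In haem synthesis and iron handling 9 of 13 genes fell and 0 rose (median -0.42). Consecutive enzymes of the pathway fell by different amounts: Alad by 1.31, Uros by 1.18, Urod by 0.79 and Cpox by 1.32 on the log2 scale, with SE of 0.09, 0.07, 0.11 and 0.06. Cpox, for coproporphyrinogen oxidase, read 1007.3, 895.2 and 893.7 at 12 h and 378.3, 368.7 and 370.6 at 24 h. The mitochondrial transporter Abcb10 fell 1.93-fold. Alas2, the erythroid enzyme of the first step, was not called (-0.02, adjusted p 0.939; this gene is named after its value was seen). All 3 erythroid lists changed while the macrophage list rose on the same arrays, and the part of either in the other's change was not tested.

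The erythroid factor Gata1 binds GATA motifs, searched here as AGATAA, as TGATAA and, with a final G, as AGATAG and as TGATAG. On both strands these were found in 11 of 24 windows of 21 of the 27 fallen erythroid genes (45.8%) and in 29.8% of all windows. CCACCC, which Klf1 family factors bind, was in 45.8% of the same windows and 31.5% of all. Windows of the risen monocyte and macrophage genes held GATA in 6 of 14 and CCACCC in 7 of 14. Windows of the fallen genes with the largest changes, a single listed start and a GATA match are printed for Sptb, Ermap and Rhag, the match in capitals and on the printed strand. They are Sptb at chr12:76710498-76710797 on the minus strand, Ermap at chr4:119189946-119190245 on the minus strand and Rhag at chr17:40810899-40811198 on the plus strand.
Sptb: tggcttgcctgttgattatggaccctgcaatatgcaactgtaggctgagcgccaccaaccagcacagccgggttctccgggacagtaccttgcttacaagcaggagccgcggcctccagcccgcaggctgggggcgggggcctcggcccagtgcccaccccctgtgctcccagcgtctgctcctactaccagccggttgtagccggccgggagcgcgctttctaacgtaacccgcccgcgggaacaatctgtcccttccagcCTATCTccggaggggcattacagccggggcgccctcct
Ermap: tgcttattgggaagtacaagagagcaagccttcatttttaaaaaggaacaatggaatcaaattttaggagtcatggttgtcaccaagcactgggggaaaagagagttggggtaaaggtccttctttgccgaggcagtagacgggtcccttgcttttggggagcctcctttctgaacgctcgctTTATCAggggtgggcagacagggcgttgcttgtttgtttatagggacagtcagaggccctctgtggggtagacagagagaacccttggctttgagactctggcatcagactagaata
Rhag: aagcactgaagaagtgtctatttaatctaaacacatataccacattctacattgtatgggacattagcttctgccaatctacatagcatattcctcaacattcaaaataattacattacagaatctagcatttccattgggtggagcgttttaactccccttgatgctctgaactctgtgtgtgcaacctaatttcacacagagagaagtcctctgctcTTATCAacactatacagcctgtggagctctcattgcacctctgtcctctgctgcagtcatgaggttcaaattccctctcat
Some genes have several windows, so windows are not independent, and no test was made of these shares. Windows of erythroid list members not called were not counted, so the shares do not bear on the fall.

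Division genes formed the most uniform group. All 21 of the 21 tested G2 and M phase genes fell (median -0.50, changes from -0.92 to -0.29), against 5.52% of all genes. Cenpf, for a kinetochore protein, read 855.2, 835.1 and 881.0 at 12 h and 446.4, 453.3 and 461.7 at 24 h (-0.92 ± 0.06, adjusted p 4.44e-11). Cenpe, the kinetochore motor, fell 1.68-fold from 993.5, 993.0 and 997.2 to 550.7, 611.7 and 619.2 (-0.75 ± 0.06), and the spindle kinase gene Aurka fell 1.61-fold (-0.68 ± 0.06). Birc5 (survivin) and Cdc25c, the phosphatase that opens entry into mitosis, fell by 0.72 and 0.76 on the log2 scale. In none of these 5 did a 24 h array reach the 12 h range.

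Replication genes fell by less. Of 25 G1 and S phase genes 13 fell and 0 rose (median -0.20), and 8 fell without the first 24 h array. E2f2 (-0.42 ± 0.06), the replication licensing gene Cdc6 (-0.42 ± 0.09) and thymidine kinase, Tk1 (-0.39 ± 0.06), were the largest. Ccne1, for cyclin E, went from 640.3, 546.2 and 528.9 to 431.0, 444.7 and 451.6 (-0.37 ± 0.08, adjusted p 0.00136).

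Cyclin D1 went the other way. Ccnd1 read 527.5, 472.1 and 490.7 at 12 h and 841.4, 837.3 and 819.2 at 24 h, a 1.68-fold rise without overlap (0.75 ± 0.07, adjusted p 1.57e-08). The inhibitors Cdkn2c (-0.37 ± 0.06), Cdkn2d (-0.35 ± 0.09) and Cdkn1b (p27, -0.28 ± 0.06) fell. In that list of 17 genes 3 rose and 4 fell (median -0.02), beside 5.59% and 5.52% of all genes. However, 1 rose without any of 4 arrays in turn (all but the first of each time) and 2 fell without the third array of either time.

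Mitotic promoters are known for the element called CHR, searched here as TTTGAA and also as TTCGAA, and for CCAAT boxes bound by NF-Y. On both strands CHR was present in 13 of 16 windows of 16 of the 21 fallen genes (81.2%) against 19.2% of all windows, and CCAAT in 15 of 16 (93.8%) against 37.4%. All tested genes of the list fell, so no share of members that did not fall can be set beside these. Not every chromosome was considered for printing, so fallen genes with larger changes may be missing. Among the genes considered, the 4 windows printed belong to the most changed with a single listed start and a CHR match. All of them also hold CCAAT, and both kinds of match are in capitals. They are Cenpf at chr1:189688037-189688336 on the minus strand, Aurka at chr2:172370521-172370820 on the minus strand, Cdc20 at chr4:118437294-118437593 on the minus strand and Ccnb2 at chr9:70421505-70421804 on the minus strand.
Cenpf: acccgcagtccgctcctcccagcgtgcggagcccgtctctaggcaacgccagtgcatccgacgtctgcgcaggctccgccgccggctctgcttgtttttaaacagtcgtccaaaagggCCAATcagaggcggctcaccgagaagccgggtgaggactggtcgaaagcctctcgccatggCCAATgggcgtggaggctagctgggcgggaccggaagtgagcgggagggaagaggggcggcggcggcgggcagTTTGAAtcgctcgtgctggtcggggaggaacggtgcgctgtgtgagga
Aurka: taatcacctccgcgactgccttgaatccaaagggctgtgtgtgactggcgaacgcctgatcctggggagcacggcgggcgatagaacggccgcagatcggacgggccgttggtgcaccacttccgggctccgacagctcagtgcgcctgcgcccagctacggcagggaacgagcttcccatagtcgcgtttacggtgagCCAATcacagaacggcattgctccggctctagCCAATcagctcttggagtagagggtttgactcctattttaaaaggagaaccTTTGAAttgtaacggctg
Cdc20: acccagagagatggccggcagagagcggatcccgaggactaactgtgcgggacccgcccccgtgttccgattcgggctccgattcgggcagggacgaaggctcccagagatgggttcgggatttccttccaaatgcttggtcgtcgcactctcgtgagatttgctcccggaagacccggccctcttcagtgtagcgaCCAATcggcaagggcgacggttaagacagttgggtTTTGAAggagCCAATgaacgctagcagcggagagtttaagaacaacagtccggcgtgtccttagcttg
Ccnb2: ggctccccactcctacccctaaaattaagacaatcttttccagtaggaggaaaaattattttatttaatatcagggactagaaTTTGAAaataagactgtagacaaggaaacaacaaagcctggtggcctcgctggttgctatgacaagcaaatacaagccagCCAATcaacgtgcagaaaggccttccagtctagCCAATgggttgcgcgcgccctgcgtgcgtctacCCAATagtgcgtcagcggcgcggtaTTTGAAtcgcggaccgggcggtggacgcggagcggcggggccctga
Of these, Cdc20, the activator of the complex that ends mitosis, fell by 0.54 on the log2 scale, and Ccnb2, for cyclin B2, by 0.54 as well. The marked matches do not overlap each other. Both genes are named for their sequences, after their values were seen.

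**Figure D2:**
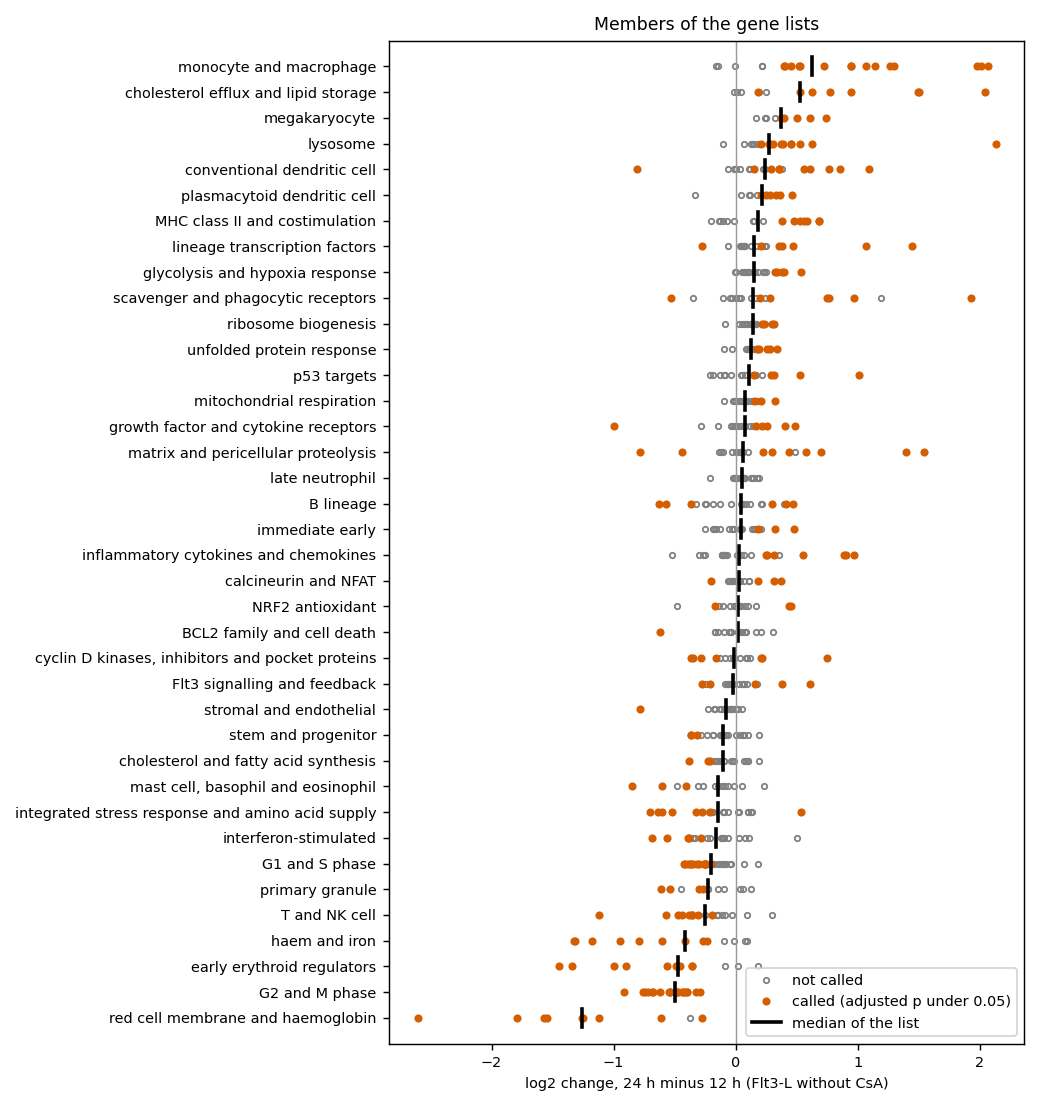
Log2 change from 12 h to 24 h (x axis) of every tested member of 38 gene lists, 1 point per gene, filled where the adjusted p was below 0.05, with a bar at each list's median. Red cell membrane genes (median -1.26) and G2 and M phase genes (-0.50) lie at one end and monocyte and macrophage genes (0.63) at the other.

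Flt3 itself, the receptor of the ligand in the dish, rose 1.40-fold, from 431.5, 435.2 and 416.8 to 579.8, 620.5 and 598.0 (0.49 ± 0.09, adjusted p 0.000542). Csf1r read 2261.4, 2133.0 and 2071.7, then 2845.3, 2816.4 and 2879.5. The interleukin 7 receptor gene Il7r rose by 0.26 ± 0.06 (adjusted p 0.00569), with an adjusted p of 0.0634 without the second 12 h array. Receptors for the other myeloid growth factors were not called: Csf2ra at 0.05 ± 0.09, Csf2rb at -0.01 ± 0.06, Csf3r at 0.14 ± 0.08 and Il3ra at -0.04 ± 0.05. Kit, the stem cell factor receptor, was 698.2, 815.7 and 816.0 at 12 h and 647.5, 656.6 and 605.1 at 24 h, apart but not called (-0.28 ± 0.12, adjusted p 0.144). Of 19 receptor genes 5 rose and 1, Epor, fell (median 0.08), beside 5.59% and 5.52% of all genes.

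Genes downstream of receptor kinases changed in both directions. Of 20 Flt3 signalling and feedback genes 3 rose, 2 fell and 15 were not called (median -0.02). Over all genes 5.59% were called higher and 5.52% lower. The ERK-responsive factor gene Etv5 rose 1.52-fold, from 111.6, 105.7 and 107.6 to 182.0, 159.0 and 155.3 (0.61 ± 0.08), and the ERK inhibitor Spred1 rose by 0.38 ± 0.08. The STAT5 targets Cish and Pim1 fell by 0.27 and 0.21 on the log2 scale, and neither was called without the third 12 h array, where 0 of the list fell.

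Dendritic cell genes rose in part. Of 19 conventional dendritic cell genes 9 rose and 1 fell (median 0.24), beside 5.59% and 5.52% of all genes. Clec10a, a galactose lectin, went from 172.4, 146.6 and 121.2 to 303.2, 284.9 and 345.5 (1.09 ± 0.15, adjusted p 7.1e-06), Tlr3 from 36.7, 45.5 and 38.9 to 68.2, 78.4 and 72.3 (0.86 ± 0.11), and Clec9a, the dead-cell receptor of cross-presenting dendritic cells, rose 1.52-fold (0.61 ± 0.13). Tlr3 was read at low signal, below the median of each array. Snx22, a sorting nexin, fell 1.75-fold (-0.80 ± 0.09). Xcr1 and Zbtb46, used to define these cells, were at 0.00 and -0.01 and not called (both named after their values were seen). Some entries, Cd209a and Clec10a among them, are also made by macrophages.

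MHC class II genes rose from high levels, with 7 of 16 list genes higher and 0 lower (median 0.18). H2-Aa read 2404.0, 2327.2 and 2505.6 at 12 h and 3929.7, 4034.3 and 3652.8 at 24 h (0.68 ± 0.07, adjusted p 3.65e-08). H2-Ab1 (0.68 ± 0.07), H2-Eb1 (0.56 ± 0.07), the peptide loader H2-DMa (0.59 ± 0.12) and the invariant chain Cd74 (0.53 ± 0.07) rose likewise, while the costimulatory genes Cd80, Cd86 and Cd40 were not called. Among plasmacytoid dendritic cell genes 6 of 13 rose and 0 fell (median 0.21). Siglech went from 1037.2, 979.9 and 1007.1 to 1380.2, 1217.3 and 1210.0 (0.33 ± 0.08, adjusted p 0.00792, or 0.0608 without the first 24 h array), and the RNA sensor Tlr7 rose by 0.46 ± 0.08. Irf7, the interferon regulator of these cells, was at -0.33 ± 0.11 with an adjusted p of 0.0508.

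Transcription factors of the lineages rose in 6 of 20 cases and fell in 1 (median 0.15), beside 5.59% and 5.52% of all genes. Bhlhe41, a factor of macrophages and of B1 cells, rose 2.72-fold, from 101.5, 110.2 and 122.5 to 276.2, 304.9 and 326.5 (1.44 ± 0.13). Cebpa, needed for myeloid progenitors, rose by 0.47 ± 0.08, and Id2, needed for dendritic cells, by 0.35 ± 0.05. Cebpb, the only one to fall, was not called without the first or the third 12 h array or the first or second 24 h array.

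Among primary granule genes of promyelocytes, 4 of 12 fell and 0 rose (median -0.23). Ms4a3 went from 1401.1, 1537.1 and 1426.1 to 873.4, 986.2 and 995.0 (-0.61 ± 0.10), proteinase 3, Prtn3, fell 1.45-fold (-0.54 ± 0.10) and myeloperoxidase, Mpo, 1.23-fold (-0.30 ± 0.08, adjusted p 0.00928). No late neutrophil gene was called by limma, 0 of 18 in either direction, with changes between -0.21 (Ly6g, adjusted p 0.416) and 0.19 and a median of 0.06. Stem and progenitor genes fell in 3 of 19 cases (median -0.11), beside 5.52% of all genes. They were Lmo2 (-0.37 ± 0.05), Tal1 (-0.37 ± 0.09) and Adgrg1 (-0.32 ± 0.08, not called without the first 12 h array). The first 2 of these also act in erythroid cells.

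Platelet-lineage genes were higher. Of 10 megakaryocyte genes 5 rose and 0 fell (median 0.37), led by platelet factor 4, Pf4, from 1080.3, 1362.6 and 1540.2 to 2018.2, 2263.7 and 2312.7 (0.74 ± 0.13, adjusted p 0.000233). Tubb1, the platelet tubulin, and Clec1b were at 0.61 ± 0.19 and 0.50 ± 0.16 (adjusted p 0.0345 and 0.0396). Pf4 was the firmest of the 5: the count was 2 without the first 12 h array and 1 without the second 12 h array, the second 24 h array or the third 24 h array.

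Lymphoid genes were mixed. T and NK cell genes fell in 9 of 19 cases and rose in 0 (median -0.25). Il2rb, the shared receptor chain for interleukins 2 and 15, fell 2.17-fold, from 225.1, 260.0 and 228.2 to 106.1, 116.5 and 105.7 (-1.12 ± 0.13), and Cd3e fell 1.39-fold (-0.47 ± 0.13, adjusted p 0.0167). The call for Cd3e was lost without the first or the second 12 h array and without the second or the third 24 h array, with an adjusted p of up to 0.0906. Without the second 12 h array, without the first 24 h array or with dim genes left out, 5 fell. In the B lineage 3 of 19 rose and 3 fell (median 0.05), beside 5.59% and 5.52% of all genes. The genes of early B cells Dntt (-0.63 ± 0.15) and Igll1 (-0.57 ± 0.11) fell, and the mature B cell genes Cd22 (0.47 ± 0.10) and Fcmr (0.41 ± 0.12) rose, but 1 gene rose without the second 12 h array or the third 24 h array.

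In the list of integrated stress response and amino acid supply genes 7 of 20 fell, 1 rose and 12 were not called (median -0.15). Asns, for asparagine synthetase, read 3569.3, 3556.2 and 3568.6 at 12 h and 2115.0, 2236.1 and 2207.3 at 24 h (-0.71 ± 0.07, adjusted p 2.48e-08). Trib3 (-0.64 ± 0.11), the folate enzyme Mthfd2 (-0.61 ± 0.10) and the amino acid transporter Slc7a5 (-0.52 ± 0.06) fell with it, while the stress factor Atf3 rose by 0.53 ± 0.10. Unfolded protein response genes rose in 5 of 16 cases and fell in 0 (median 0.13), beside 5.59% and 5.52% of all genes. The chaperone helper Sdf2l1 was at 0.34 ± 0.11 and calnexin, Canx, at 0.17 ± 0.04. The list's count of rises was 1 with a replicate block, 1 without the third 12 h array and 2 or 3 without the first or second 12 h array or the second or the third 24 h array. For Pdia4, another probe set had the opposite sign.

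Interferon-stimulated genes fell in 5 of 18 cases and rose in 0 (median -0.17), beside 5.52% of all genes called lower and 5.59% called higher. Oas3, an RNA sensor, went from 861.7, 706.1 and 705.9 to 452.2, 476.5 and 478.7 (-0.69 ± 0.10, adjusted p 3.7e-05). Ifit1 was at -0.56 ± 0.14 with overlapping arrays (374.8 to 474.9 against 241.2 to 402.2). The count was 1 without the first 12 h array, the first 24 h array or the second 24 h array.

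Some cytokine and chemokine genes rose. Ccl7, a chemokine for monocytes, went from 123.7, 145.4 and 138.4 to 261.2, 251.3 and 283.6 (0.97 ± 0.14), Ccl2 rose 1.87-fold (0.90 ± 0.12), Ccl3 1.46-fold and the cytokine Il1a 1.85-fold (0.89 ± 0.14). In that list of 22 genes 7 rose, 0 fell and 15 were not called (median 0.03), and 4 rose without the second 24 h array. Il1b was not called (-0.52 ± 0.19, adjusted p 0.0875). Immediate early genes rose in 3 of 20 cases and fell in 0 (median 0.04), beside 5.59% and 5.52% of all genes. Egr2, from 181.3, 178.3 and 195.7 to 252.3, 257.2 and 261.5 (0.47 ± 0.10), was ahead of Jun (0.32 ± 0.05).

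Of 19 matrix and pericellular protease genes 7 rose and 2 fell (median 0.06), beside 5.59% and 5.52% of all genes. Anpep, the aminopeptidase CD13, rose 2.92-fold, from 483.0, 382.2 and 444.6 to 1179.1, 1315.2 and 1315.7 (1.55 ± 0.09), the macrophage elastase Mmp12 2.63-fold (1.40 ± 0.13) and the plasminogen activator Plau 1.63-fold (0.70 ± 0.12). Fibronectin, Fn1, fell 1.72-fold, from 1721.9, 2249.9 and 2045.7 to 1106.0, 1261.0 and 1116.3. It was also the 1 gene of 17 stromal and endothelial genes that fell, beside 5.52% of all genes, with 0 higher (median -0.08). It is made by monocytes and macrophages too. The proteoglycan versican, Vcan, fell 3.39-fold, from 1296.0, 1695.8 and 1287.6 to 436.7, 455.4 and 365.1 (-1.76 ± 0.18).

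Among cell survival genes 1 of 17 was called, beside 11.1% of all genes. Bcl2l1, for the survival protein Bcl-xL, on which late erythroid cells rely, fell 1.53-fold, from 1529.0, 1407.2 and 1572.7 to 1023.2, 918.3 and 998.4 (-0.62 ± 0.06, adjusted p 9.64e-08). The list's median was 0.02. The p53 targets rose in 5 of 18 cases and fell in 0 (median 0.11), beside 5.59% and 5.52% of all genes. The kinase gene Plk2 was at 1.01 ± 0.09 (110.6, 111.4 and 102.7, then 197.5, 222.8 and 234.1) and Zmat3 at 0.52 ± 0.08. The count of risen p53 targets was 3 without the second or the third 12 h array or the third 24 h array.

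Metabolic and biosynthetic lists moved little. Over all genes 5.59% were called higher and 5.52% lower, and some of the following counts lie near these shares. Ribosome biogenesis genes rose in 4 of 20 cases (median 0.14), with Gnl3 at 0.32 ± 0.06 and Nolc1 at 0.30 ± 0.04, and respiratory genes in 3 of 19 (median 0.08), with 0 lower in both. The latter count was 1 without the second or the third 12 h array or the third 24 h array. Glycolysis and hypoxia response genes rose in 5 of 20 cases and fell in 0 (median 0.15), led by Mif (0.53 ± 0.06, from 1215.3, 1302.9 and 1140.3 to 1917.1, 1750.6 and 1631.0). That count was 2 or 3 without any of 5 arrays in turn, all but the first 24 h array. NRF2 genes rose in 2 of 15 cases, the haem-degrading enzyme Hmox1 (0.45 ± 0.12) and Prdx1 (0.44 ± 0.07), and fell in 1, Gclc, with a median of 0.02. Without the second 12 h array or the first 24 h array 1 rose, and Gclc was not called without any of 5 arrays in turn, all but the second 12 h array. The largest change of that list was in Nqo1, at -0.48 and not called (adjusted p 0.0503). It was called lower in 7 of 15 alternative settings. Calcineurin and NFAT genes rose in 3 of 17 cases and fell in 1 (median 0.02). Nfatc2 went from 225.6, 210.7 and 219.8 to 296.8, 275.3 and 278.5 (0.37 ± 0.06), and without the first or the third 12 h array or the second 24 h array 1 gene rose.

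The change from 12 h to 24 h was set beside the changes before and after it. These comparisons share the 12 h arrays or the 24 h arrays with it, so values are given side by side only, and the labels do not say whether the unstimulated cells were fresh or cultured. Several of the genes that rose had been lower at 12 h than in unstimulated cells. Mrc1 stood at 476.5, 330.8 and 365.8 in unstimulated cells, which is -1.73 ± 0.16 for 12 h against unstimulated, then 1.93 for 24 h against 12 h and 1.26 ± 0.16 for 48 h against 24 h. C1qb gave -0.67 ± 0.12, 1.98 and 0.88 ± 0.12 in the same order, and Plk2 -1.78 ± 0.09, 1.01 and 1.22 ± 0.09. Atp6v0d2 differed little from unstimulated cells at 12 h (0.17 ± 0.11, adjusted p 0.271) and gave 2.13 and 2.25 ± 0.11 in the following steps.

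Falling genes had other courses. For Klf1 the differences were -1.66 ± 0.10, -1.34 and -0.86 ± 0.10, and for Aqp1 -1.39 ± 0.12, -2.60 and -0.52 ± 0.12. Cenpf fell most in the step described here, with -0.29 ± 0.06, -0.92 and -0.27 ± 0.06, although these sizes were not tested against each other. Vcan and Asns were higher at 12 h than in unstimulated cells, by 2.14 ± 0.18 and 0.45 ± 0.07, before they fell. Flt3 rose at each of these steps, by 0.40 ± 0.09, 0.49 and 0.64 ± 0.09, and read 697.3, 712.0 and 674.0 at 11 days after 923.4, 942.1 and 930.2 at 48 h. H2-Aa was not called at first (-0.01 ± 0.07, adjusted p 0.88) and then gave 0.68 and 0.23 ± 0.07.

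**Figure D3:**
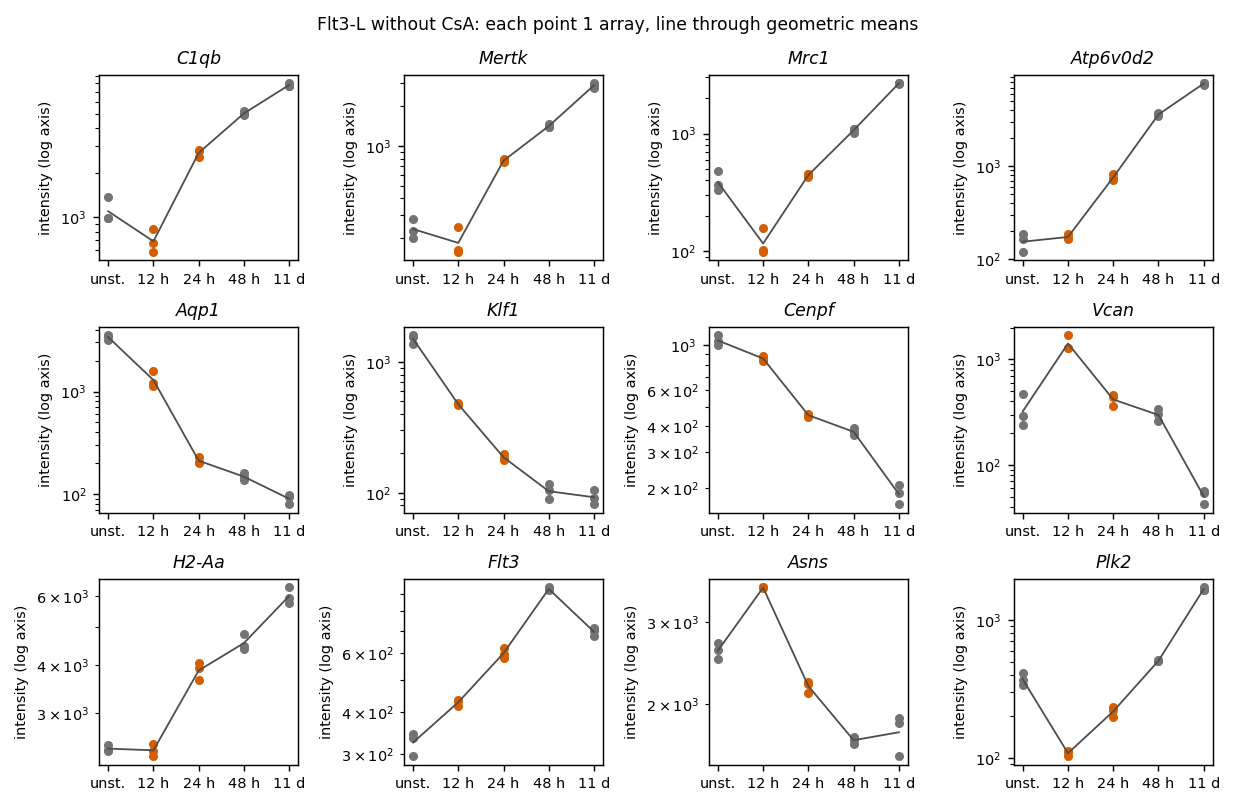
Intensity (log axis) of 12 genes in unstimulated cells and after 12 h, 24 h, 48 h and 11 days of Flt3-L without CsA, 1 point per array, coloured at 12 h and 24 h, with a line through the geometric means and unevenly spaced times on an even axis. Mrc1, C1qb and Plk2 dip at 12 h and Vcan and Asns peak there.

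The cultures with CsA measured the same step on 6 other arrays. There 1621 genes were called higher and 1640 lower (8.13% and 8.23% of genes, 16.4% together), or 1066 and 1715 with each array's median subtracted. Of the 2214 genes called without CsA (11.1%), 1673 were called in the same direction with it, which is 75.6% of the calls without and 51.3% of the calls with CsA, and 8 were called in opposite directions. Among the 89 genes changed at least 2-fold without CsA, 89 were called the same way with it and 84 passed 2-fold. Their median rise was 1.41 without and 1.52 with CsA, and their median fall -1.31 and -1.37. Across all 19935 genes, which are not independent replicates, the 2 sets of changes had a Pearson r of 0.744. Deviations of equally numbered arrays correlated across the treatments (0.369, 0.346 and 0.398 at 24 h), so the 2 sets may not be independent measurements. Mertk was at 2.22, C1qb at 2.39, Aqp1 at -2.77, Klf1 at -1.47 and Cenpf at -0.92 with CsA. On the list counts, 21 of 21 G2 and M phase genes and 8 of 10 red cell membrane genes fell with CsA, and 14 of 20 monocyte and macrophage genes rose. The third CsA arrays at 12 h and at 24 h each lay nearest to the third array without CsA of the same time. Without both, 1404 genes were higher and 1565 lower with CsA.

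**Figure D4:**
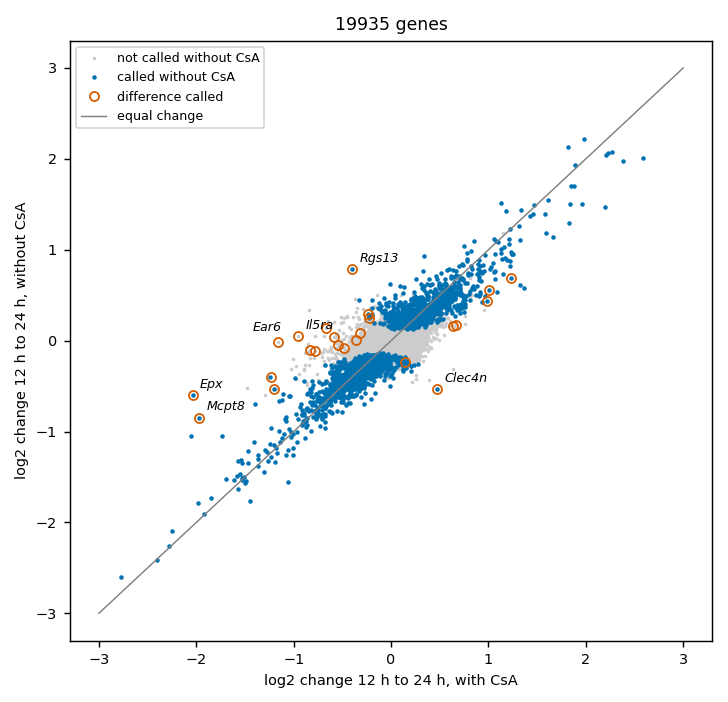
Log2 change from 12 h to 24 h with CsA (x axis) and without CsA (y axis) for 19935 genes, with genes called without CsA in blue, the 24 genes whose 2 changes differed ringed, and a line of equal change. Points spread around the line (r 0.744), and Epx and Mcpt8 lie left of it, having fallen further with CsA.

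The difference between the 2 changes was tested directly, and 24 genes were called (0.12%), 17 with a positive value (0.0853%) and 7 with a negative one (0.0351%), where positive means a larger rise or smaller fall without CsA. Positive and negative calls were 15 and 1 with array medians subtracted, 11 and 0 with only the groups compared, and 40 and 2 with a replicate block. Of the 17, 4 belong to the list of mast cell, basophil and eosinophil genes. Epx, eosinophil peroxidase, fell from 1733.5, 2171.8 and 2200.7 to 1269.1, 1364.2 and 1365.3 without CsA, and from 1971.8, 2210.7 and 2148.3 to 473.4, 464.6 and 617.9 with it (difference 1.43 ± 0.17, adjusted p 0.000336). The 12 h arrays overlapped between the treatments and the 24 h arrays did not. Mcpt8, a basophil protease, changed by -0.85 without and -1.97 with CsA (difference 1.12 ± 0.23, adjusted p 0.0399), and the interleukin 5 receptor gene Il5ra by 0.05 and -0.95 (1.01 ± 0.18, adjusted p 0.0217). The difference was not called in 10 of 22 alternative settings for Mcpt8 (adjusted p up to 0.144) and in 6 of 22 for Il5ra (up to 0.0916). The fourth was Prss34, a basophil protease, at -0.40 without and -1.24 with CsA. In the list of 15 mast cell, basophil and eosinophil genes, 3 fell without CsA and 0 rose (median -0.14), and 11 fell with CsA (median -0.66). The count without CsA was 5 when the first 12 h array was left out.

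Ear6, an eosinophil-associated ribonuclease, was not called without CsA (-0.01 ± 0.13, adjusted p 0.978) and fell by 1.17 on the log2 scale with it (difference 1.15 ± 0.18, adjusted p 0.00665). It belongs to a family of near-identical genes whose signals an array may mix. Rgs13, a regulator of G protein signalling, was read at low signal: 25.5, 23.2 and 22.9, then 37.9, 41.3 and 44.1 without CsA, and 35.3, 29.0 and 24.1, then 22.5, 23.4 and 20.5 with it (1.18 ± 0.18, adjusted p 0.00383).

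On the negative side, Clec4n fell without CsA and rose by 0.47 ± 0.13 with it, from 334.2, 263.5 and 241.5 to 338.7, 432.0 and 387.5 (difference -1.002 ± 0.19, adjusted p 0.0217). The kinase of secreted proteins Fam20c rose in both, by 0.44 without and 0.99 with CsA (difference -0.55 ± 0.09), as did Gdpd1 (0.69 and 1.23). Srxn1, an NRF2 target that repairs peroxiredoxins, was at 0.17 without CsA (adjusted p 0.0512) and 0.66 with it, and Zc3h12c at 0.16 and 0.64. With CsA, Fam20c, Zc3h12c and Clec4n read lower at 12 h on every array than without it, and read 729.5 to 824.8, 392.5 to 416.1 and 338.7 to 432.0 at 24 h, beside 697.1 to 767.8, 378.1 to 396.4 and 438.8 to 525.8 without it. The calls for Epx and Ear6 held in 22 of 22 alternative settings and that for Rgs13 in the 21 that tested it. Those for Fam20c, Srxn1, Zc3h12c, Clec4n and Gdpd1 were lost in 1, 3, 7, 11 and 13 of 22. The number of such genes was less stable: 10 to 65 when 1 array was left out, lowest without the second and highest without the third CsA array at 12 h. It was 12 or 13 without any one of the 12 h arrays without CsA, 15 and 12 without the second and the third 24 h array, and 12 without the third CsA array at 24 h. Without the third CsA array of each time 24 genes were called, of which 13 were among the original 24.

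**Figure D5:**
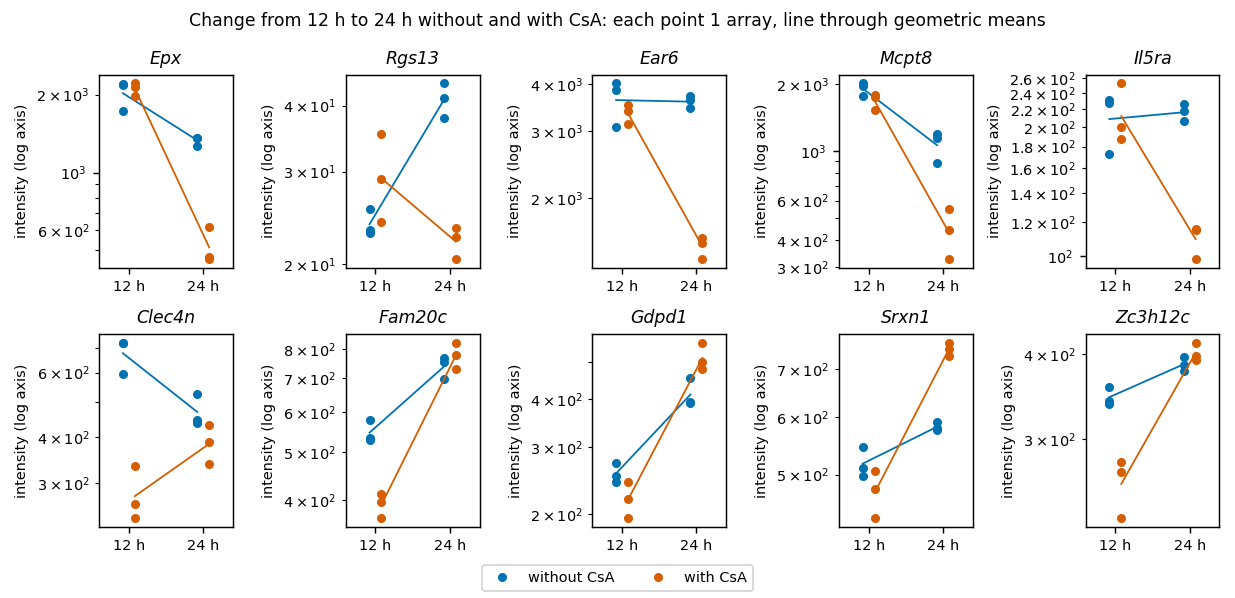
Intensity (log axis) at 12 h and 24 h without CsA (blue) and with CsA (orange) for the 10 genes with the most positive and most negative called differences, 1 point per array and lines through geometric means. At 24 h the CsA arrays of Epx (464.6 to 617.9) lie below the arrays without CsA (1269.1 to 1365.3).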

How the data were processed

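Total RNA was amplified, labelled with biotin and hybridised to 27 one-colour arrays, 3 in each of 9 groups, per the labels' protocols. The authors deposited 1 intensity per probe set and array, made with RMA (version not stated) per the submitters' processing notes. Values between 5.2 and 18180.7 show a linear scale, so log2 was taken here. Of 28815 probe sets, 21780 name 1 gene in GEO's platform table, whose names may be outdated, 1605 name several and were left out, and 5430 were not named. For 998 genes with several probe sets the brightest on average was used, which left 19935 genes. One limma model (limma 3.58.1, R 4.3.3) of 9 group means gave the changes, their SE and, after Benjamini-Hochberg adjustment over all genes, the calls at an adjusted p below 0.05. The script was tested on simulated data. The number of arrays limits the precision.

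The comparison, its 38 gene lists (716 entries, 664 tested) and the named genes' rule were chosen with earlier results of these data known, so no list is independent evidence. Named were the called genes without overlap of times that had the 15 greatest increases or the 15 greatest decreases, up to 5 members of each list with the largest change, the 5 most positive and 5 most negative called differences between the treatments, and Flt3, Csf1r, Csf2ra, Csf2rb, Csf3r, Il3ra, Kit and Il7r. Predicted, small RNA, smell receptor and immune segment genes were left out, except as list members. Other names were chosen after their values were seen. Alternatives were other variance models, array weights, a filter on dim genes, other normalizations, averaged probe sets per gene, only the groups compared, a replicate block and leaving out each array. Python 3.11.15 searched the promoters and drew the plots, through matplotlib 3.10.9, with numpy 2.4.6 and pandas 2.3.3.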

Additional observations from a re-analysis of the deposited data

Results flagged for a closer look

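For 10 genes the change from 12 h to 24 h differed between cultures without and with CsA by a direct test of the difference (change without CsA minus change with CsA, log2, limma, adjusted p from 0.000336 to 0.042). The positive values were 1.43 for Epx, 1.18 for Rgs13, 1.15 for Ear6, 1.12 for Mcpt8 and 1.01 for Il5ra. The negative values were -1.002 for Clec4n, -0.55 for Fam20c, -0.55 for Gdpd1, -0.49 for Srxn1 and -0.48 for Zc3h12c. Epx and Ear6 kept their calls in 22 of 22 alternative settings, and Rgs13 in the 21 that tested it. Of the 22 settings, the call was lost in 1 for Fam20c, 3 for Srxn1, 6 for Il5ra, 7 for Zc3h12c, 10 for Mcpt8, 11 for Clec4n and 13 for Gdpd1.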

How the results depend on the processing

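Calls from 12 h to 24 h numbered 715 to 1055 higher and 834 to 941 lower when 1 array was left out (lowest for the rises without the second 24 h array), and 33 to 43 and 50 to 56 at least 2-fold. With array weights 1617 were higher and 1485 lower. Deviations of arrays with equal numbers correlated at 0.135, 0.287 and 0.031 between 12 h and 24 h, and between cultures without and with CsA at 0.19, 0.188 and 0.098 at 12 h and 0.369, 0.346 and 0.398 at 24 h, each best with its own number across the treatments. Not all passed 0.1, so the numbers were not taken as pairs. With a replicate block over only the groups compared, 883 were higher and 962 lower, beside 903 and 989 without the block, and 42 differences between the treatments were called (40 positive, 2 negative), 15 of them among the original 24 and without Srxn1, Zc3h12c, Gdpd1 and Clec4n. With CsA 1262 to 1927 were higher and 1223 to 1727 lower when 1 array was left out, 1066 were higher with array medians subtracted, and 881 were higher and 1085 lower with only the groups compared. The difference gave 10 to 65 genes when 1 array was left out, 123 with array weights and 11 with only the groups compared. The cause was not tested. Neither Csf2ra nor Csf2rb was called: Csf2ra turned to -0.009 without the second 24 h array (range -0.009 to 0.133 when 1 array was left out), and Csf2rb to 0.003 with array medians subtracted and to 0.025 and 0.055 without the third 24 h or second 12 h array (range -0.059 to 0.055). Of 166 called named genes 127 kept the call in every setting, 39 lost it in at least 1 and 0 reversed. Of 40 named genes not called, 24 were called in some setting and 2 reversed in some setting. The setting without the third CsA arrays was chosen after seeing the data. No detection calls were used, so low signals such as Vsig4, Rgs13 and Tlr3 may lie near background.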
